A study of Mus musculus with 16 samples.

Results

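The genes described here are markers of liver zonation, the division of work between hepatocytes along the path of blood through the liver lobule. They are 10 genes: Glul, Oat, Cyp2e1, Cyp1a2, Rgn, Axin2 and Tbx3, which mark the pericentral zone around the central vein, and Hal, Cyp2f2 and Gls2, which mark the periportal zone where blood enters. Members were found by gene symbol, and the brightest probe set stood for a gene with several. This gave 9 of the 10 genes, 7 pericentral and 2 periportal, among 19938 genes in all. No probe set carried the symbol Gls2 in the annotation used, so Gls2 was not analysed here.

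Livers of 16 male mice aged 4 months were snap frozen, and RNA of each was measured on 1 Affymetrix mouse gene array. All mice carried the transgene TgINS-MCK-Mut, whose MCK (muscle creatine kinase) promoter drives methylmalonyl-CoA mutase in muscle, so the controls carried it as well. The 4 groups of 4 mice were heterozygotes (Mut +/-;TgINS-MCK-Mut) at baseline, heterozygotes after 12 hours of fasting, mutants (Mut -/-;TgINS-MCK-Mut) at baseline, and mutants after a fast of 8 to 12 hours. The mutants model methylmalonic acidemia, in which loss of this mitochondrial enzyme blocks the breakdown of propionate, but their muscle still makes the enzyme. The fasted genotypes therefore differed in the range of their fasting times too, and genotype and length of fast cannot be told apart there.

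Blood flows from the portal triad to the central vein, and hepatocytes along the way hold different enzymes. Endothelial cells of the central vein release Wnt ligands and R-spondin, which keep beta-catenin active in nearby hepatocytes and turn on pericentral genes such as Glul, Axin2 and Tbx3. Periportal hepatocytes carry much of the breakdown of amino acids, urea synthesis and gluconeogenesis. The markers are read here in whole liver, in which fewer cells of a zone and less RNA per cell cannot be told apart.

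All values below are log2 expression values as deposited, so that a difference of 1 is a doubling. A gene is called changed where its adjusted p is under 0.05 in limma, a linear model with moderated variances fitted to all 16 arrays, with the Benjamini-Hochberg adjustment over 19938 genes. Differences are given ± standard error, and levels as mean ± SD with 4 arrays a group. Mmut, the gene disrupted in the mutants, differed by -1.78 ± 0.11 in unfasted and -1.80 ± 0.11 in fasted mutants from heterozygotes, with no overlap, which matched the labels. The 6 measured hepatocyte markers averaged between 12.58 and 12.72 on every array, and none was called in any comparison. Unfasted mutant replicate 1 held transcripts of pancreatic acinar cells. The mean of 6 acinar genes was 10.12 on that array against 6.70 to 6.93 elsewhere, so results were recomputed without it, as without each other array in turn.

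The 250 bases before the start site of 7 of the 10 genes were found in the RefSeq promoter table of build GRCm38.p6. Those of Hal and Cyp2f2, the periportal pair that was lower in mutants in both feeding states, and of Cyp1a2, a pericentral gene that like Rgn was lower in fasted mutants than in unfasted ones, are shown 5′ to 3′ on the strand of the gene. Capitals mark matches to 3 motifs: CTTTGA, the core bound by the beta-catenin partners TCF and LEF, on either strand; GCGTG, the core bound by the aryl hydrocarbon receptor, on either strand; and TATAAA on the gene's strand.
Hal promoter, chr10:93488518-93488767, plus strand: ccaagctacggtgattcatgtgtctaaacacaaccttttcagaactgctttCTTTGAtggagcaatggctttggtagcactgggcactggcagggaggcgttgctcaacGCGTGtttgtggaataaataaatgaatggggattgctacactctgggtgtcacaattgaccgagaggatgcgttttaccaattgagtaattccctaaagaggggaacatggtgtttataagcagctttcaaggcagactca
Cyp2f2 promoter, chr7:27119705-27119954, plus strand: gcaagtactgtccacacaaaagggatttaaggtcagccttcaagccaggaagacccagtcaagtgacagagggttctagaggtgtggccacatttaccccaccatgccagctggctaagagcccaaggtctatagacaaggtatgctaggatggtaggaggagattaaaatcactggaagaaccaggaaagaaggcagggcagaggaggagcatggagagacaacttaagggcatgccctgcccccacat
Cyp1a2 promoter, chr9:57683656-57683905, minus strand: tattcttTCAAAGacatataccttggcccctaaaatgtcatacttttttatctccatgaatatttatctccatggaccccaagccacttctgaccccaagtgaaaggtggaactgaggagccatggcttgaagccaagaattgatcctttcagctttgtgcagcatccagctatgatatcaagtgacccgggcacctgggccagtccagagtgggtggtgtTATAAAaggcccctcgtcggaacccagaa
The Hal window held CTTTGA starting at position -199 and GCGTG starting at -141, counted from the start site. The Cyp1a2 window held CTTTGA on its opposite strand, written there as its reverse complement from -243, and TATAAA from -29. The Cyp2f2 window held none of the 3 motifs, nor did those of the pericentral genes Glul, Oat and Axin2. Cyp2e1, which is also pericentral, had CTTTGA at -135 and TATAAA at -31. Of 32851 promoter windows of this length, 13.8% held CTTTGA, 28.2% held GCGTG and 7.59% held TATAAA, so none of these letters is rare. The matches are a description of the sequence and no evidence of binding.

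The periportal markers were lower in mutants in both feeding states. Hal encodes histidine ammonia-lyase, the first enzyme of histidine breakdown. It read 12.08, 12.30, 12.35 and 12.37 in the 4 unfasted heterozygotes and 12.35, 12.38, 12.69 and 12.19 in the fasted ones. In mutants it read 10.48, 10.66, 10.87 and 11.70 unfasted and 10.79, 11.82, 12.13 and 11.54 fasted. Every mutant liver lay below every heterozygote of its feeding state, though the highest fasted mutant, at 12.13, sat just under the lowest fasted heterozygote, at 12.19. Hal was 2.55-fold lower in unfasted mutants (-1.35 ± 0.26, limma adjusted p = 0.0054). The difference was -1.20 without unfasted mutant replicate 1 (adjusted p = 0.015), and the call held whichever array was left out.

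In fasted mutants Hal differed by -0.83 ± 0.26 (limma adjusted p = 0.043). This call was lost when any 1 of 10 arrays was left out, with adjusted p up to 0.11. Without fasted mutant replicate 1 the difference was -0.57. The means ran, from low to high, unfasted mutants (10.93 ± 0.54), fasted mutants (11.57 ± 0.57), unfasted heterozygotes (12.27 ± 0.14) and fasted heterozygotes (12.40 ± 0.21). Within each genotype the neighbours in this order were not called different, and the fasted mutants, reaching 12.13, overlapped with the unfasted heterozygotes, whose lowest was 12.08. Fasted against unfasted mutants gave 0.64 ± 0.26 (adjusted p = 0.16), and without fasted mutant replicate 1 it gave 0.90 (adjusted p = 0.04).

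Cyp2f2 is a cytochrome P450 that oxidises naphthalene and other small aromatic compounds. Its 8 heterozygous livers were tightly grouped, at 13.33, 13.37, 13.31 and 13.36 unfasted and 13.17, 13.27, 13.22 and 13.24 fasted. The unfasted mutants read 12.07, 12.90, 12.39 and 13.02, and the fasted mutants 12.36, 12.22, 12.69 and 12.05. All 8 mutants lay below all 8 heterozygotes. The difference was -0.75 ± 0.16 unfasted (1.68-fold, limma adjusted p = 0.013) and -0.90 ± 0.16 fasted (1.86-fold, adjusted p = 0.0031). Without unfasted mutant replicate 1 the unfasted difference was -0.57 (adjusted p = 0.022), and no single array ended either call. A fit of only the 8 unfasted arrays gave an adjusted p = 0.054 for the first.

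The spread of the mutants was wide for Cyp2f2, with an SD of 0.45 unfasted and 0.27 fasted against 0.03 and 0.04 in heterozygotes. Hal had SDs of 0.54 and 0.57 in mutants against 0.14 and 0.21. Over all genes the median SD was 0.11 in unfasted and 0.09 in fasted mutants, and 0.07 in both heterozygous groups. In each mutant group both genes were more variable than that median. So were Oat (0.83 unfasted and 0.6 fasted), Rgn (0.13 and 0.44), Axin2 (0.2 and 0.16) and Tbx3 (0.44 and 0.12). Glul (0.09) and Cyp1a2 (0.11) were not above it in unfasted mutants, and Cyp2e1 (0.04 and 0.02) was below it in both groups. The order of Cyp2f2 means was fasted mutants (12.33), unfasted mutants (12.60), fasted heterozygotes (13.22) and unfasted heterozygotes (13.34). Fasting gave -0.12 ± 0.16 in heterozygotes, although the fasted and unfasted animals did not overlap, and -0.27 ± 0.16 in mutants, neither of which was called. The standard error comes from 1 spread fitted to all 4 groups, so the wider mutants also set it for heterozygotes. The value in mutants was -0.44 without unfasted mutant replicate 1 (limma adjusted p = 0.055). It was -0.16 or -0.12 without replicate 2 or 4 of that group and -0.17 without fasted mutant replicate 4.

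**Figure D1:**
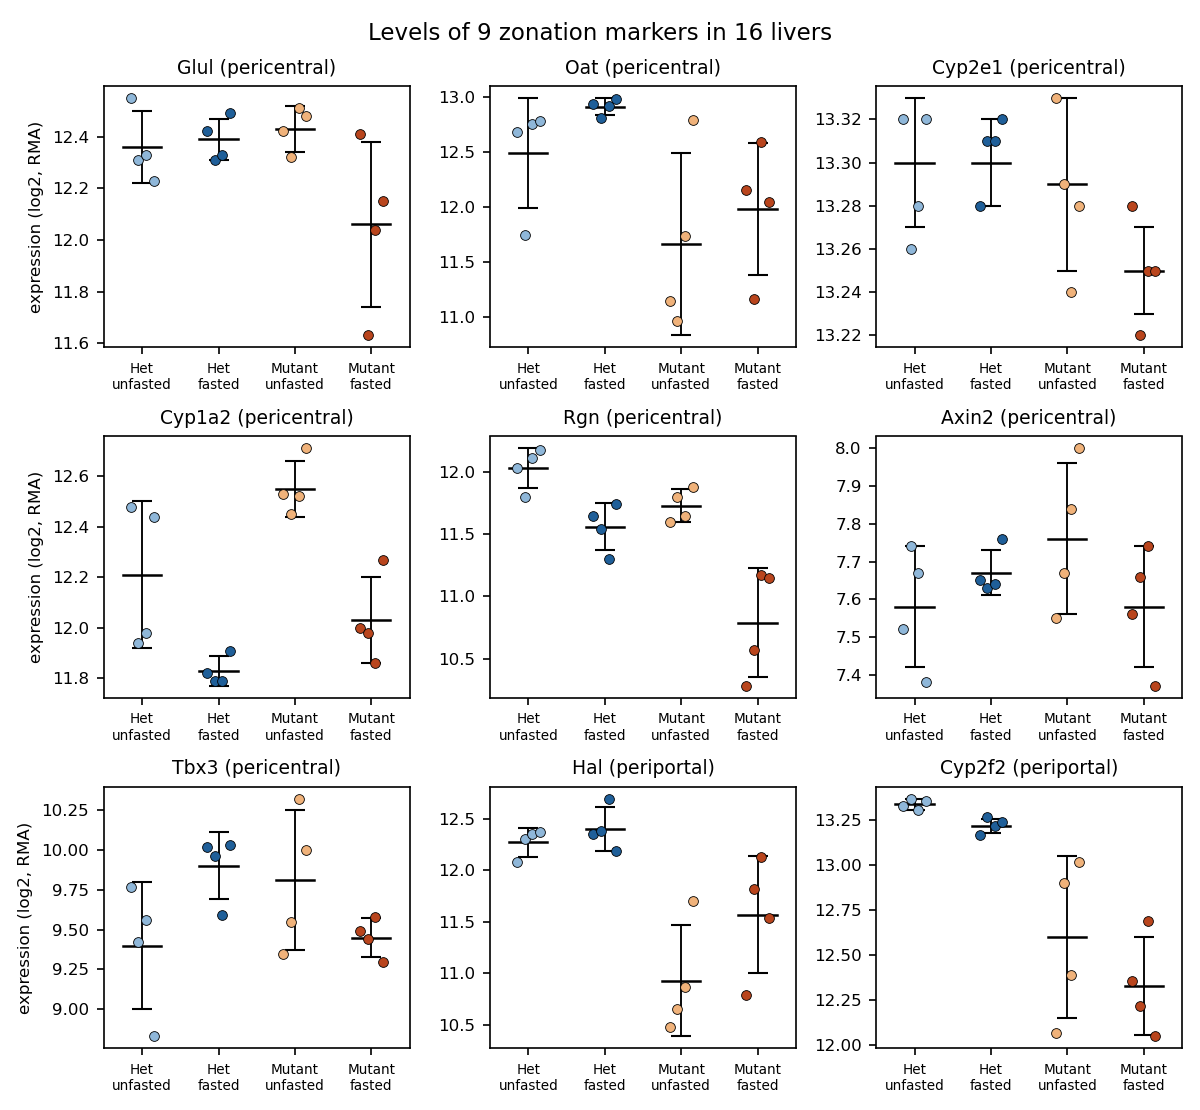
Expression (log2, RMA) of each of the 9 measured markers in the 16 livers, by group. Points are single livers, the long bar is the group mean and the whiskers are 1 SD (4 livers); each panel has its own vertical scale, which does not start at 0. Hal and Cyp2f2 show both mutant groups below the heterozygotes, while Cyp2e1 spans only 13.22 to 13.33.

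Of the 7 pericentral markers, Glul, Axin2, Tbx3 and Cyp2e1 were not called in any comparison of the main fit. Glul encodes glutamine synthetase, which captures ammonia in the cells next to the central vein. It read 12.55, 12.31, 12.33 and 12.23 in unfasted heterozygotes, 12.42, 12.31, 12.33 and 12.49 in fasted heterozygotes, and 12.42, 12.32, 12.51 and 12.48 in unfasted mutants. Those 3 groups overlapped throughout. The fasted mutants read 12.41, 11.63, 12.04 and 12.15, so 3 of the 4 lay below all other livers and 1 did not.

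For Glul the unfasted genotype difference was 0.08 ± 0.12, with a 95% interval from -0.17 to 0.33, and it ran from 0.04 to 0.14 with 1 array left out. In the fasted state it was -0.33 ± 0.12, with an interval from -0.59 to -0.08 (limma adjusted p = 0.076). Single livers moved this value: it was -0.45 without fasted mutant replicate 1 (adjusted p = 0.017) and -0.19 without replicate 2. With all arrays it was called with array weights (-0.35, adjusted p = 0.027), median-centred arrays (-0.36, 0.044) and a replicate block (-0.33, 0.043). Fasted against unfasted mutants gave -0.38 ± 0.12 (adjusted p = 0.088), which became -0.49 (adjusted p = 0.024) and -0.24 without fasted mutant replicate 1 and 2. Glul has 2 probe sets annotated to it, which differed by at most 0.17 on any array, and the second gave means of 12.26, 12.34, 12.36 and 12.04 in the order above. Whether either probe set also reads a related sequence elsewhere was not tested.

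Axin2, a scaffold protein that is itself induced by Wnt signals and restrains them, varied little. Its group means were 7.58 ± 0.16 and 7.67 ± 0.06 in unfasted and fasted heterozygotes and 7.76 ± 0.20 and 7.58 ± 0.16 in unfasted and fasted mutants. In the same order the median SD of all genes was 0.07, 0.07, 0.11 and 0.09. All groups overlapped, and the largest pairwise difference, unfasted mutants against unfasted heterozygotes, was 0.19 ± 0.10 with an interval from -0.03 to 0.40. It was 0.11 without unfasted mutant replicate 4 and 0.12 without unfasted heterozygote replicate 4.

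Tbx3, a T-box transcription factor of pericentral hepatocytes, was more variable. It read 9.77, 9.42, 9.56 and 8.83 in unfasted and 10.02, 9.96, 9.59 and 10.03 in fasted heterozygotes. In mutants it read 9.35, 9.55, 10.32 and 10.003 unfasted and 9.49, 9.44, 9.58 and 9.30 fasted. The fasted mutants lay below all fasted heterozygotes, while the unfasted groups overlapped. Mutants differed from heterozygotes by 0.41 ± 0.20 unfasted and by -0.45 ± 0.20 fasted, neither called (limma adjusted p = 0.25 and 0.15). The unfasted value was 0.22 without unfasted heterozygote replicate 4, 0.24 without unfasted mutant replicate 3 and 0.56 without unfasted mutant replicate 1. The interaction, which tests whether the 2 genotype differences are equal, was -0.86 ± 0.29 with an unadjusted p = 0.0087 in limma, but its adjusted p was 0.38. In a fit of only the 8 fasted arrays the fasted difference had an adjusted p = 0.021.

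Cyp2e1, the ethanol-oxidising cytochrome P450, was nearly constant. All 16 livers lay between 13.22 and 13.33, in a table whose highest value is 14.33. The 4 fasted mutants, at 13.25 ± 0.02, lay just below the 4 fasted heterozygotes, at 13.30 ± 0.02, a difference of -0.05 ± 0.03 that was not called. The unfasted interval ran from -0.08 to 0.06. Whether this bright probe set was close to saturation was not tested.

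The other 3 pericentral genes, Oat, Rgn and Cyp1a2, were each called in at least 1 comparison. Oat encodes ornithine aminotransferase, which turns ornithine into a precursor of glutamate and proline. It read 12.68, 11.74, 12.75 and 12.78 in unfasted and 12.93, 12.81, 12.92 and 12.98 in fasted heterozygotes. The unfasted mutants read 11.14, 10.96, 11.73 and 12.79, and the fasted ones 12.15, 11.16, 12.59 and 12.04. Unfasted mutant replicate 4 was as high as the highest unfasted heterozygote, while the fasted genotypes did not overlap.

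The Oat differences of -0.83 ± 0.35 unfasted and -0.93 ± 0.35 fasted were not called (limma adjusted p = 0.17 and 0.091). Averaged over the feeding states, Oat was lower in mutants, at -0.88 ± 0.25 (adjusted p = 0.020). Without unfasted mutant replicate 4 the unfasted difference was -1.21 (adjusted p = 0.021) and the fasted one was called too, at an unchanged -0.93 (adjusted p = 0.035). In a fit of only the 8 fasted arrays the fasted difference had an adjusted p = 0.029. Fasting gave 0.42 ± 0.35 in heterozygotes (0.18 without unfasted heterozygote replicate 2) and 0.33 ± 0.35 in mutants. The value in mutants was 0.16, 0.10 or 0.71 without unfasted mutant replicate 1, 2 or 4, and 0.61 or 0.13 without fasted mutant replicate 2 or 3, none of them called.

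Rgn encodes regucalcin, a calcium-binding lactonase of the pathway that makes ascorbate. It read 12.03, 11.80, 12.11 and 12.18 in unfasted heterozygotes and 11.65, 11.54, 11.30 and 11.74 in fasted ones. The unfasted mutants read 11.60, 11.80, 11.65 and 11.88. The fasted mutants stood apart at 10.28, 10.57, 11.17 and 11.15, below all 12 other livers. Rgn was 1.70-fold lower in fasted mutants than in fasted heterozygotes (-0.76 ± 0.17, limma adjusted p = 0.0077) and 1.91-fold lower than in unfasted mutants (-0.94 ± 0.17, adjusted p = 0.0099).

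Neither of these Rgn calls was lost when a single array was left out, although a fit of only the 8 mutant arrays gave an adjusted p = 0.088 for the second. The unfasted genotype difference was -0.30 ± 0.17 and the fasting difference in heterozygotes -0.47 ± 0.17, neither called (limma adjusted p = 0.32 and 0.20). The latter was called in a fit of only the 8 heterozygous arrays (adjusted p = 0.046). The interaction was -0.46 ± 0.23 (adjusted p = 0.47; -0.29 without fasted mutant replicate 1), so the fasting differences were not shown to be unequal between genotypes.

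Cyp1a2, a cytochrome P450 induced through the aryl hydrocarbon receptor, was the only member called higher in mutants in any comparison. It read 12.48, 11.94, 11.98 and 12.44 in unfasted and 11.82, 11.79, 11.79 and 11.91 in fasted heterozygotes. The unfasted mutants read 12.53, 12.45, 12.52 and 12.71 and the fasted ones 12.00, 11.98, 11.86 and 12.27. In each genotype the fasted livers lay below all unfasted ones. Fasting lowered it 1.44-fold in mutants (-0.53 ± 0.12, limma adjusted p = 0.024), and in heterozygotes the difference was -0.39 ± 0.12 (adjusted p = 0.13). The call in mutants was lost without unfasted mutant replicate 4 or without fasted mutant replicate 2 or 3 (adjusted p up to 0.07). It was also lost with array weights (0.053) and in a fit of only the mutant arrays (0.071).

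With array weights, the fasting difference of Cyp1a2 in heterozygotes was called (limma adjusted p = 0.046). The genotype difference was 0.34 ± 0.12 unfasted (adjusted p = 0.087) and 0.20 ± 0.12 fasted (adjusted p = 0.26), the latter 0.12 without fasted mutant replicate 4. The unfasted one was called after a second quantile normalization (0.037) and without unfasted heterozygote replicate 1 (0.43, adjusted p = 0.033). The average over feeding states was 0.27 ± 0.08 (adjusted p = 0.029), a call lost when any 1 of 6 arrays was left out (adjusted p up to 0.064).

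**Figure D2:**
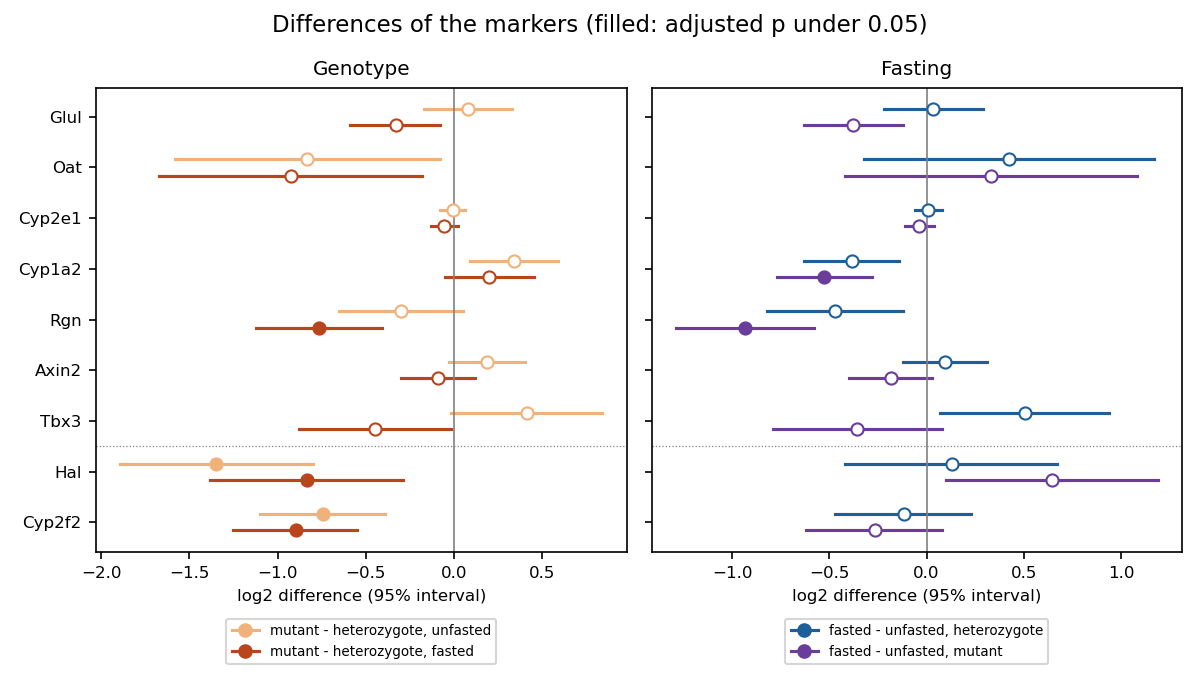
Log2 differences of the 9 markers with 95% intervals, between genotypes (left) and between feeding states (right), from the fit to all 16 arrays; the dotted line separates pericentral (above) from periportal genes. Filled points have an adjusted p under 0.05: Hal and Cyp2f2 in both genotype comparisons, Rgn in the fasted genotype comparison, and Rgn and Cyp1a2 in the fasting of mutants.

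Counted over the 9 measured members, 2 were called in unfasted mutants against heterozygotes, both lower and both periportal, where 7.94% of all genes were called. In the fasted state 3 were called, all lower (both periportal genes and Rgn), against 13.6% of all genes. None was called for fasting in heterozygotes, where 1.57% of genes were called by limma. Unadjusted, 3 members had a p under 0.05 there in limma, as did 2444 of all 19938 genes. Fasting in mutants gave 2 called members (Rgn and Cyp1a2, both lower) against 3.35%. The interaction called no member and 0.01% of genes. Its unadjusted p in limma was under 0.05 for 2 members (Tbx3 and Glul) and for 2189 of all 19938 genes. Averaged over feeding states, 5 members were called, Cyp1a2 higher and Hal, Cyp2f2, Oat and Rgn lower, where 20.9% of genes were called.

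The median difference over the members was -0.01 unfasted and -0.45 fasted between genotypes, and 0.03 in heterozygotes and -0.27 in mutants between feeding states. Over all genes the 4 medians lay between -0.022 and 0.007. The groups did not overlap for 2 of 9 members in the unfasted genotype comparison and for 6 of 9 in the fasted one, against 12.0% and 23.7% of all genes. For fasting these counts were 4 of 9 in heterozygotes and 2 of 9 in mutants, against 2084 and 2000 of the 19938 genes. The genotype and fasting comparisons share arrays, so their values are not independent.

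Livers of one group differed from each other in how far the markers moved. Against the mean of the unfasted heterozygotes, the mean of Hal and Cyp2f2 in the 4 unfasted mutants was -1.53, -1.03, -1.18 and -0.45. In the 4 fasted mutants it was -1.23, -0.79, -0.40 and -1.01, while heterozygotes ranged from -0.11 to 0.15. Unfasted mutant replicate 4 was thus the mildest of its group, and it had the highest value of its group for 6 of the 9 members and the lowest for none. Replicate 1, which carried the acinar transcripts, had the lowest value for 5. The mean of the 7 pericentral genes moved less, from -0.20 to 0.26 in unfasted mutants, from -0.53 to -0.16 in fasted mutants and from -0.16 to 0.14 in heterozygotes. This mean joins genes that moved in opposite directions, and single ones moved further. Oat was at -1.53 in unfasted mutant replicate 2 and Rgn at -1.74 in fasted mutant replicate 1, while Tbx3 was at 0.93 in unfasted mutant replicate 3.

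**Figure D3:**
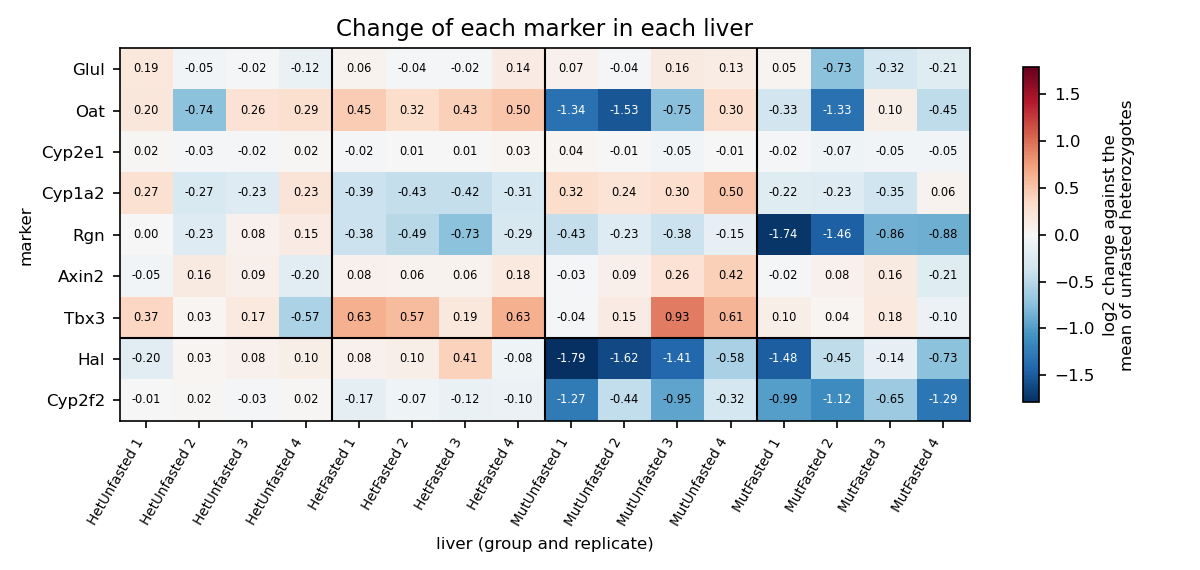
Change of each marker in each liver (log2) against the mean of the 4 unfasted heterozygotes; columns are livers in their groups, rows are genes, the horizontal line separates pericentral from periportal genes, and the number in each cell is the value. The lowest cells are those of Hal in unfasted mutant 1 (-1.79) and Rgn in fasted mutant 1 (-1.74), and Cyp2e1 stays within 0.07 of 0.

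The genes with the most similar pattern were sought for each called member. Likeness was the mean absolute gap between 2 genes over the 16 arrays after each was centred on its own mean. Nearest to Hal was Car14, a membrane carbonic anhydrase, at a mean gap of 0.19 where Hal's own mean deviation was 0.59. Apon and Ftcd followed at 0.28 each. Oat was nearest to Lhpp, a phosphatase on the list of other pericentral genes, at 0.18 against a mean deviation of 0.61, then to Apon at 0.30 and Car14 at 0.31. Rgn was nearest to Adra1b (0.13), an adrenergic receptor, Akr1c14 (0.15) and Ces2e (0.16), with its own deviation at 0.40. Cyp1a2 was nearest to Mvk (0.10), mevalonate kinase, Mmab (0.11), an enzyme that makes adenosylcobalamin, and Sc5d (0.12), a sterol desaturase, with its own deviation at 0.29. For Cyp2f2 the genes Cyp2d13, Chrm3 and Pls3 all lay at 0.17 against a deviation of 0.43.

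Further genes known from the 2 zones were read beside the members. Of 16 measured periportal genes out of 20 listed, 5 were lower and none higher in unfasted mutants, with a median difference of -0.33. Of all genes, 7.94% were called in that comparison. Pigr, the receptor that carries immunoglobulin A into bile, differed by -2.12 ± 0.40 (limma adjusted p = 0.0052), Etnppl, a phospholyase, by -1.60 ± 0.31 and G6pc, glucose-6-phosphatase, by -0.74 ± 0.17. Ctsc, a lysosomal protease, differed by -0.69 ± 0.15 and Arg1, arginase, by -0.37 ± 0.09. In fasted mutants, where 13.6% of all genes were called, 3 were lower, none was higher and the median was -0.08. Pigr differed by -2.74 ± 0.40 there, Asl, argininosuccinate lyase, by -0.65 ± 0.18 and Vtn, the plasma protein vitronectin, by -0.22 ± 0.05. Leaving out single arrays gave 3 to 6 lower genes in the unfasted comparison and 2 to 4 lower and 0 to 1 higher in the fasted one. The call of Arg1 ended when 1 of 5 arrays was dropped (adjusted p up to 0.075). Asl lost it without fasted mutant replicate 1 or 2 or fasted heterozygote replicate 3 (up to 0.074), and G6pc without unfasted mutant replicate 2 or unfasted heterozygote replicate 3 (up to 0.055).

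Pigr ranged from 11.63 to 12.22 in the 8 heterozygotes. In unfasted mutants it ran from 9.02 to 11.67, so 1 liver reached the heterozygous range, and in fasted mutants from 9.12 to 9.70. Within histidine breakdown, Ftcd, which acts at the end of the path that Hal opens, was lower in mutants, at -0.93 ± 0.16 unfasted (limma adjusted p = 0.0035) and -0.64 ± 0.16 fasted (adjusted p = 0.018; 0.055 at most without fasted mutant replicate 1 or fasted heterozygote replicate 3). Uroc1, urocanase, was lower in fasted mutants, at -0.98 ± 0.20 (adjusted p = 0.0056), and its unfasted difference was -0.66 ± 0.20 (adjusted p = 0.055). Amdhd1, the enzyme between them, was not called, with differences of -0.39 ± 0.16 and -0.26 ± 0.16. Of these 3 genes, then, 1 was lower unfasted and 2 fasted, where 7.94% and 13.6% of all genes were called.

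Periportal genes also moved with fasting, for which 1.57% of all genes were called in heterozygotes and 3.35% in mutants. In heterozygotes 2 were higher and 1 was lower: Cyp17a1, a steroid hydroxylase, rose by 2.17 ± 0.34 (limma adjusted p = 0.0064), Pck1, which starts gluconeogenesis from oxaloacetate, by 0.60 ± 0.10, and Cdh1, E-cadherin, fell by 1.10 ± 0.26. The Cdh1 call was lost without any 1 of 9 arrays. In mutants 5 were higher and none lower, with a median of 0.39. Cyp17a1 rose by 1.82 ± 0.34, Apoa4, an apolipoprotein, by 0.73 ± 0.19, G6pc by 0.73 ± 0.17, Arg1 by 0.55 ± 0.09 and Pck1 by 0.55 ± 0.10. Apoa4 lost its call without any 1 of 11 arrays and G6pc without any 1 of 4, and 3 to 5 of these genes were called with 1 array left out.

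Of 20 measured further pericentral genes out of 24 listed, 1 was called in unfasted mutants, against 7.94% of all genes. This was Ahr, the aryl hydrocarbon receptor, higher by 0.65 ± 0.10 (limma adjusted p = 0.0016), with a list median of -0.03. In fasted mutants, where 13.6% of all genes were called, 7 were lower and none higher, with a median of -0.32. Cyp2c50, a cytochrome P450, was 2.01-fold lower (limma adjusted p = 0.0044), Prodh, proline dehydrogenase, 1.92-fold (adjusted p = 0.0054) and Cyp2c37, another P450, 1.42-fold. The other 4 lower genes differed by between -0.47 and -0.29. With 1 array left out, 7 or 8 were lower.

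For fasting, 1 pericentral gene was higher and 1 lower in heterozygotes, and 3 were lower in mutants. Of all genes, 1.57% were called in heterozygotes and 3.35% in mutants. Nr1i3, the nuclear receptor CAR, rose by 0.75 ± 0.18 in heterozygotes (limma adjusted p = 0.048; lost without any 1 of 13 arrays), and Gsta3, a glutathione transferase, fell by 0.27 ± 0.05. In mutants Lect2, a secreted protein, fell by 0.92 ± 0.19, Gulo, the last enzyme of ascorbate synthesis, by 0.69 ± 0.15 and Gsta3 by 0.49 ± 0.05. The call of Lect2 ended without replicate 4 of the unfasted or replicate 2 of the fasted mutants (adjusted p up to 0.064) and that of Gulo without any 1 of 4 arrays. Single arrays brought the count in mutants to between 1 and 4. No gene of either zone list was called in the interaction, where 0.01% of all genes were called, so unequal fasting differences were not shown.

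**Figure D4:**
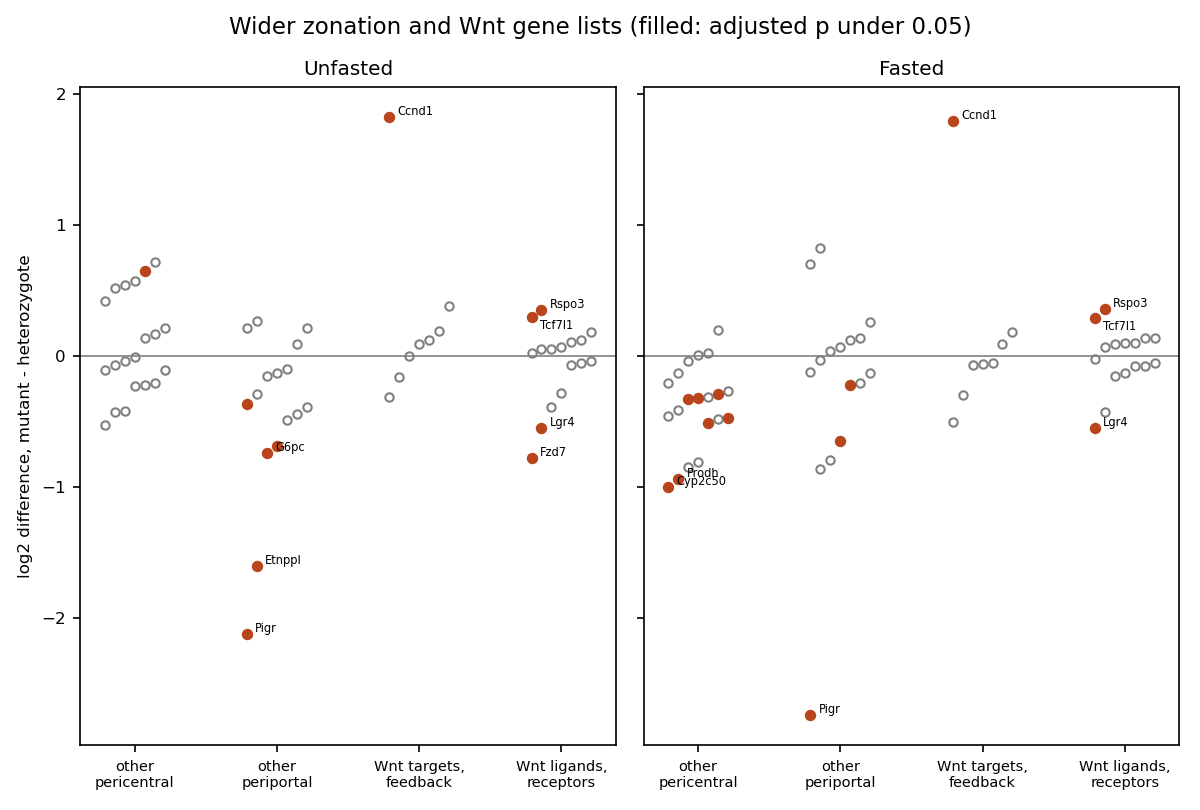
Log2 differences, mutant minus heterozygote, of single genes in 4 lists (columns) in the unfasted (left) and fasted (right) state. Filled points have an adjusted p under 0.05. In the zone columns only filled points with larger differences are named, and in the Wnt columns all filled points are. Among other periportal genes 5 filled points lie below 0 on the left and 3 on the right, among other pericentral genes 1 lies above 0 on the left and 7 below 0 on the right. Of all genes, 7.94% were called in the unfasted and 13.6% in the fasted comparison.

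Midlobular genes lie between the zones, and 2 of 4 were called in unfasted mutants and 1 of 4 in fasted ones, where 7.94% and 13.6% of all genes were called. Igfbp2, a binding protein of insulin-like growth factors, was higher in mutants by 1.41 ± 0.19 unfasted (limma adjusted p = 0.00068) and 0.76 ± 0.19 fasted (lost without fasted heterozygote replicate 2 or 4, adjusted p up to 0.063). It rose with fasting in heterozygotes by 0.96 ± 0.19, a call lost without any 1 of 4 arrays. Cyp8b1, a bile acid hydroxylase, was lower in unfasted mutants, at -1.95 ± 0.55 (adjusted p = 0.041). Without unfasted mutant replicate 1 the difference was -1.44 and not called (adjusted p = 0.092), and 10 single arrays ended that call.

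Of 8 measured Wnt target and feedback genes, Ccnd1, cyclin D1, was the only one called in the genotype comparisons. In these, 7.94% (unfasted) and 13.6% (fasted) of all genes were called. Ccnd1 was higher in mutants by 1.82 ± 0.28 unfasted (limma adjusted p = 0.0015) and by 1.79 ± 0.28 fasted, and it is also a general gene of cell cycle entry. Lgr5, the R-spondin receptor of pericentral cells, differed by -0.31 ± 0.23 and -0.50 ± 0.23 (adjusted p = 0.49 and 0.15). No gene of this list was called for fasting, where 1.57% (heterozygotes) and 3.35% (mutants) of all genes were called.

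Of 16 genes of Wnt ligands, receptors and beta-catenin machinery, 2 were higher and 2 lower in unfasted mutants, and 2 higher and 1 lower in fasted ones, where 7.94% and 13.6% of all genes were called. Rspo3, an R-spondin of central vein endothelium, ranged from 8.27 to 8.47 in the 8 heterozygotes and from 8.59 to 8.98 in the 8 mutants. It was higher by 0.35 ± 0.08 unfasted (limma adjusted p = 0.012) and 0.36 ± 0.08 fasted (adjusted p = 0.0067). Lgr4, its receptor, ranged from 10.33 to 10.96 in heterozygotes and from 9.89 to 10.40 in mutants, and differed by -0.55 ± 0.12 in each state. The unfasted call of Lgr4 was lost without unfasted heterozygote replicate 4 (adjusted p = 0.05). Tcf7l1, a DNA-binding partner of beta-catenin, was higher by 0.30 ± 0.09 and 0.29 ± 0.09, calls that were lost without any 1 of 12 and 7 arrays. Fzd7, a Wnt receptor, differed by -0.78 ± 0.17 in unfasted mutants and fell by 0.88 ± 0.17 with fasting in heterozygotes, a call lost without unfasted heterozygote replicate 4 or fasted heterozygote replicate 3 (adjusted p up to 0.051).

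Glul and Oat were read beside 8 further measured genes of glutamine, glutamate and ornithine handling. Between genotypes, 7.94% (unfasted) and 13.6% (fasted) of all genes were called. Aldh18a1, which makes the proline precursor from glutamate, was higher in mutants by 1.41 ± 0.31 unfasted (limma adjusted p = 0.012) and 1.04 ± 0.31 fasted (lost without any 1 of 7 arrays). Otc, the urea cycle enzyme that shares the substrate ornithine with Oat, differed by -1.21 ± 0.25 in fasted mutants (adjusted p = 0.0063). Unfasted, Otc read 11.04 ± 0.32 in mutants and 11.87 ± 0.20 in heterozygotes, which was not called. Averaged over feeding states Otc was lower in mutants, a call kept whichever array was left out. None of the 8 was called for fasting, where 1.57% (heterozygotes) and 3.35% (mutants) of all genes were called.

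Cyp1a2 was read beside 5 targets of the aryl hydrocarbon receptor. Between genotypes, 7.94% (unfasted) and 13.6% (fasted) of all genes were called. Nqo1, a quinone reductase that is also a target of NRF2, was higher by 1.25 ± 0.28 in fasted mutants (limma adjusted p = 0.0092), and no other was called in the genotype comparisons. Unfasted, Nqo1 read 8.28 ± 0.68 in mutants and 7.39 ± 0.30 in heterozygotes, which was not called. Averaged over feeding states Nqo1 was higher in mutants, a call kept whichever array was left out. Cyp1a1, the closest relative of Cyp1a2 on the list, differed by 0.07 ± 0.06 unfasted and -0.04 ± 0.06 fasted. Its group means lay between 5.78 and 6.0, below the array medians of 7.33 to 7.4. Whether Cyp1a1 was detected at this low level was not tested, so these small differences do not show that it was unchanged.

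Markers of some other cell types moved with genotype. Of all genes, 7.94% were called between unfasted and 13.6% between fasted genotypes. Of 10 endothelial markers 7 were higher in unfasted and 8 in fasted mutants, with medians of 0.37 and 0.38. Their mean level ranged from 9.21 to 9.56 in heterozygotes, 9.71 to 9.99 in unfasted mutants and 9.81 to 10.04 in fasted ones. Of 10 macrophage markers 9 were higher in fasted mutants (median 0.75) and none was called in unfasted ones (median 0.30). Averaged over feeding states all 10 were higher, where 20.9% of all genes were called. None was called in the interaction, where 0.01% of all genes were called, so unequal genotype differences were not shown. Their means were 8.77 to 9.35 in heterozygotes, 9.05 to 9.71 in unfasted and 9.54 to 9.94 in fasted mutants. Of 10 stellate cell and fibroblast markers 6 were higher in unfasted mutants (median 0.31) and 2 (Lrat and Pdgfrb) in fasted ones (median 0.17). Averaged over feeding states 7 of these markers were higher, and none was called in the interaction, where 20.9% and 0.01% of all genes were called. Their means were 8.74 to 9.05 in heterozygotes, 9.21 to 9.36 in unfasted and 8.94 to 9.25 in fasted mutants. With 1 array left out the unfasted and fasted counts ranged from 3 to 8 and 5 to 9 (endothelial), 0 to 2 and 6 to 10 (macrophage) and 2 to 7 and 0 to 3 (stellate). Of 5 cholangiocyte markers none was called unfasted and 1 fasted, Sox9 (-0.62 ± 0.12, limma adjusted p = 0.005). Of 7 lymphocyte markers none was called unfasted and 2 fasted, Ms4a1 (0.41 ± 0.10, adjusted p = 0.018) and Cd3d (-0.17 ± 0.05, adjusted p = 0.038). Of 6 neutrophil markers 1 was called unfasted, S100a9 (0.22 ± 0.05, limma adjusted p = 0.024), and none fasted. The S100a9 call was lost without unfasted heterozygote replicate 2 or 3 (adjusted p up to 0.063). The part of all these lists in the differences of the zonation markers was not tested.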

How the data were processed

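The authors deposited 1 table of processed values, made with Affymetrix Expression Console and RMA per the submitters' processing notes. RMA subtracts background, applies quantile normalization and summarizes probe sets, so arrays were compared as deposited. The values the authors deposited were taken to be log2 from their range of 3.80 to 14.33. No version, genome build or filter is named in the sources used here. The table has no detection calls; precision is set by the number of arrays.

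Probe sets were named through the platform's annotation and a RefSeq gene table (GRCm38.p6). Of 35556 probe sets, 21789 had 1 gene symbol, 1621 several and 12146 were not listed. The brightest probe set stood for each of 999 genes with several, and no filter on dim genes was applied.

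The tests used limma 3.58.1 (R 4.3.3): 1 mean per group, all 16 arrays, an intensity trend in eBayes, two-sided tests, Benjamini-Hochberg adjustment over 19938 genes. The 6 contrasts were genotype in each feeding state, fasting in each genotype, their interaction, and genotype averaged over feeding states. The test was checked on simulated data. The labels describe separate mice; no batch was given.

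The members and lists were chosen with earlier results of these data known. The naming rule was: all members, Mmut, up to 4 called genes of a list with the largest differences in the genotype and in the fasting contrasts, and the 3 genes nearest to each called member. Arg1, Asl, Vtn, Pck1, Lgr5, Uroc1 (unfasted), Amdhd1, Cyp1a1, Lrat, Pdgfrb, Sox9, Ms4a1, Cd3d and S100a9 fall outside it and were named after their values were seen. Alternatives were a replicate block, a second quantile normalization, array weights, no trend, median-centred arrays, robust moderation, the mean over probe sets, all probe sets, genes above median brightness, only the arrays compared, and leaving out each array. List counts without single arrays were added after seeing the data. So were the unfasted and averaged results of Otc and Nqo1, and the averaged and interaction counts of macrophage and stellate markers.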

Additional observations from a re-analysis of the deposited data

Results flagged for a closer look

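In 36 sets of 4 arrays (9 genes in 4 groups), 3 single livers stood far from the other 3 of their group by Dixon's test at its 95% critical value; chance alone marks about 1 in 20 such sets. Oat in unfasted heterozygote replicate 2 read 11.74, against 12.68 to 12.78 in the other 3. Axin2 in fasted heterozygote replicate 4 read 7.76, against 7.63 to 7.65. Tbx3 in fasted heterozygote replicate 3 read 9.59, against 9.96 to 10.03. Without the first of these livers, the fasting difference of Oat in heterozygotes was 0.18 in place of 0.42, and neither was called by limma.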

How the results depend on the processing

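Of the differences of single members under all alternatives, 1320 kept their direction and their side of the threshold, 26 lost a call, 17 gained one and 17 changed sign. The 4 pairwise counts of called members were 2, 3, 0 and 2. In fits of only the arrays compared they were 1 and 5 for genotype (unfasted, fasted) and 1 and 0 for fasting (heterozygotes, mutants). With array weights the fasting counts were 1 and 1. The replicate block gave 5 for the fasted genotype comparison and 1 for fasting in heterozygotes; its other counts were 3, 2, 0 (interaction) and 5 (average). It added Glul (adjusted p = 0.043) and Oat (0.03) in the fasted genotype comparison, and Cyp1a2 for unfasted genotype (0.026) and for fasting in heterozygotes (0.035). The labels give no pairing of mice by replicate number. Of 24 correlations between same-numbered arrays, from -0.12 to 0.252, 9 exceeded 0.1. Whether same-numbered arrays shared a batch cannot be told from the labels. With 1 array left out the counts ranged from 2 to 3, 2 to 4, 0 to 0 and 1 to 4, from 0 to 0 for the interaction and from 4 to 5 for the average.

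All sign changes were of uncalled values. Cyp2e1 went to 0.005 (second quantile normalization) and 0.006 (without mutant unfasted replicate 3) between unfasted genotypes, and to -0.003 (median-centred) and -0.003 (without unfasted heterozygote 2) for fasting in heterozygotes, where Glul went to -0.008 and -0.001 without unfasted or fasted heterozygote 4. The Oat interaction went to 0.214 with array weights and to between 0.153 and 0.284 without 1 of 3 arrays (0.182 without fasted mutant 2). The averaged Tbx3 difference went to 0.056, 0.024, 0.043, 0.009, 0.007, 0.001 and 0.002 without 1 of 7 arrays. With 1 array left out, Cyp2e1 ran from -0.025 to 0.006 between unfasted genotypes and from -0.003 to 0.017 for fasting in heterozygotes, and Glul from -0.008 to 0.098 there. The Oat interaction ran from -0.327 to 0.284 and the averaged Tbx3 difference from -0.114 to 0.056. The cause was not tested. The fit of only the arrays compared is the full fit for the interaction and the average. Hal in the fasted state also lost its call after a second quantile normalization (adjusted p = 0.052), with robust moderation (0.059) and over all probe sets (0.063). Having 4 arrays a group, with mutants more variable than heterozygotes, limits which small differences could be called.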
